A study of Mus musculus with 24 samples.

Results

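Extraocular muscle, the group of small muscles that move the eye, was compared between mdx and control mice at 112 days of age. The comparison comprised the 3 arrays whose sample titles name mdx at this age and the 3 whose titles name control, chosen by title alone, 6 of the 24 arrays of the series. All 12422 probe sets that are not the manufacturer's controls entered it, and the 7453 of them with a mean intensity of at least 125.7 over the series were tested. The other 18 arrays, both genotypes at 14, 28 and 56 days, supplied a common estimate of the spread and the comparison of ages. Total RNA was hybridised to 1-colour Affymetrix arrays. The controls are called wild type in the title of the series. The labels name no strain, sex or animal, so that a difference of strain cannot be told apart from one of the mdx allele, and the p-values measure the spread between arrays, which may be technical.

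A nonsense mutation in Dmd, which encodes dystrophin, makes mdx the standard mouse model of Duchenne muscular dystrophy. Dystrophin links the actin cytoskeleton of the fibre to a complex of membrane proteins and through it to the basal lamina, and its loss in limb muscle brings fibre necrosis, infiltration by macrophages and regeneration from satellite cells. Extraocular muscle is largely spared in the disease, and unlike limb muscle it keeps the embryonic and neonatal myosin heavy chains, Myh3 and Myh8, and the fetal and adult acetylcholine receptors in adult life.

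One array had to be set apart before the genotypes were compared. Across probe sets the array labelled control replicate 1 correlated with the other 112-day arrays at r = 0.924 to 0.929, while the other 5 correlated with each other at 0.962 to 0.970. Its mean correlation with the other 23 arrays was 0.908, the second lowest of the series after a 56-day control array at 0.865, and the median array had 0.938. At this age 96 tested probe sets on it lay more than 2-fold above all the other 5 arrays and 378 more than 2-fold below them. On each of the other 5 arrays 0 to 9 lay that far above and 10 to 34 that far below.

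Muscle genes were among those on which it stood apart. Myh3, the embryonic myosin heavy chain, had an intensity of 41.1 on the array labelled control replicate 1 and 4597 to 6092 on the other 5. Myh8, the neonatal chain, had 131.9 against 1497 to 2032, and Myh4, the fast IIB chain, 350.6 against 5698 to 11101. Myh3 and Myh8, which extraocular muscle keeps in adult life, were thus far lower on this array than on the other 5. Some other muscle genes were not low on it. Myh1, the fast IIX chain, had 12877 against 8773 to 13239. Ckm had 11920 against 5851 to 9112 and Mb 10748 against 6928 to 13174, each on its brighter probe set. Further ones were low: Acta1 had 460.4 against 1880 to 12927.5, Tnnt2 98.8 against 301 to 524 and Myh6 12.9 against 208 to 271. Chrna1, the alpha subunit of the muscle acetylcholine receptor, had 191.1 against 1576 to 2025, and Chrne, the adult epsilon subunit, 42.3 against 502 to 576 on its second probe set. The first Chrne probe set had 321.5 against 542 to 723, and the third 305.1, within the 151 to 602 of the others. A further, dimmer Myh4 probe set had 350.4, within 254 to 378. Myl3, the slow ventricular light chain, ran the other way with 5134 against 438 to 535, as did the carbonic anhydrase Car3 with 10463 against 1249 to 1749. Myh3, Myh8 and Myl3 on this array were outside the range of all the other 23 arrays, as the plot of its levels shows.

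Homeobox genes of the Hox clusters, which mark position along the trunk and limbs, were looked at after these values were seen. Of 38 Hox probe sets 9 were highest of all 24 arrays on the array labelled control replicate 1, for 8 of 31 genes (Hoxa4, Hoxa9, Hoxa10, Hoxa11, Hoxc8, Hoxc9, Hoxd8 and Hoxd9). The divergent 56-day control array was highest for 8, and control replicate 1 of 14 days, whose mean correlation with the other arrays was 0.926, for 7. Hoxd8 had 1203 and 872.5 on its 2 probe sets, and the other 23 arrays reached at most 492 and 256. Hoxa10 had 149.9, with at most 47.7 elsewhere. Others went the other way: Hoxa13, at 13.7, and the second Hoxd1 probe set, at 1.83, were lowest of all 24 arrays on it. Hoxb13 had 28.6 against 116 to 251 on the other 112-day arrays. Over all tested probe sets this array was the highest of the 6 arrays of 112 days in 30.5%. Its share of highest values among all 24 arrays was not counted, so that the Hox count has no like share to be set against. In Myh3, Myh8 and Chrna1, far below their levels on the other 112-day arrays, the array goes against its label as extraocular muscle. Myosin and receptor genes were not low on it throughout: Myh1 and the third Chrne probe set were within the range of the others, and Myl3 was above it. What the array holds was not tested. The differences at 112 days are given below with all 3 control arrays and without it.

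**Figure D1:**
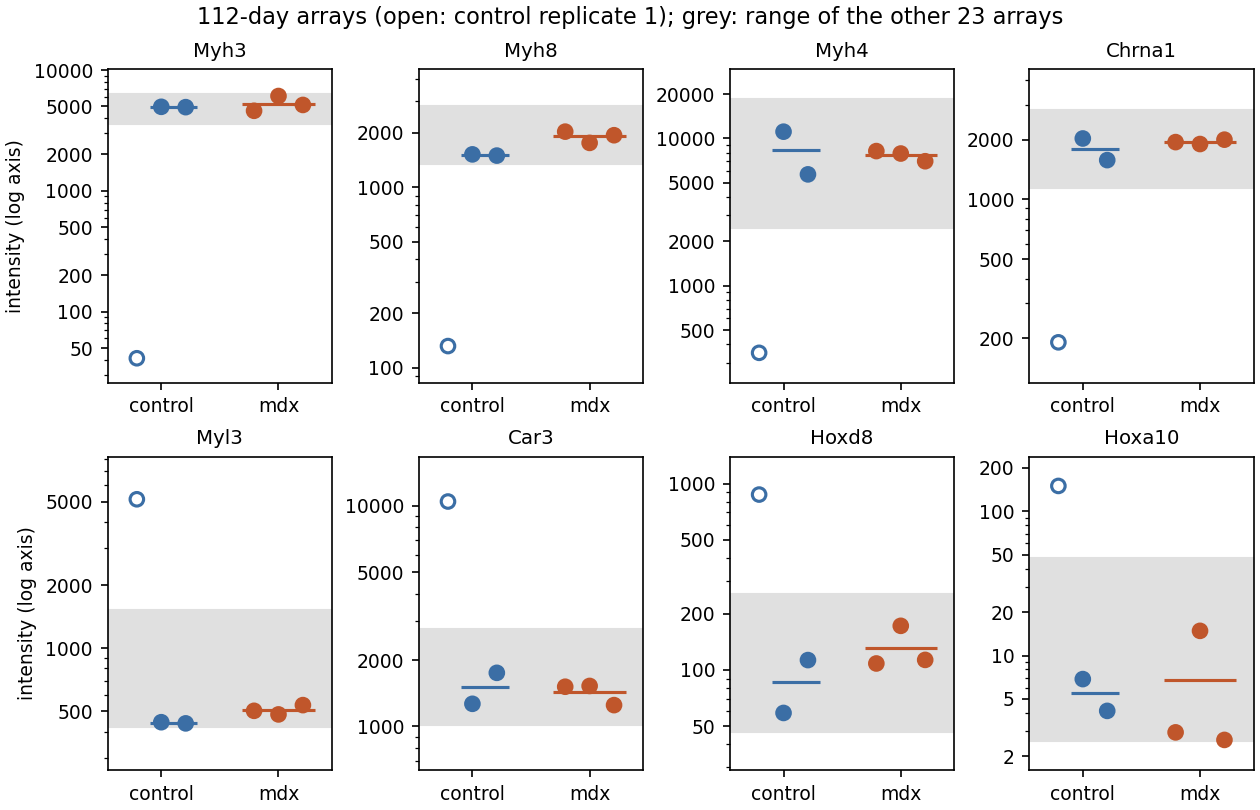
Intensity of 8 genes on the 6 arrays of 112 days (vertical log axes, 1 point per array). Blue points are control, orange points mdx, the open point is the array labelled control replicate 1, lines are means without it, and the grey band is the range of the other 23 arrays. The open point lies below the band for Myh3, Myh8, Myh4 and Chrna1 (41.1 for Myh3) and above it for Myl3, Car3, Hoxd8 and Hoxa10 (5134 for Myl3).

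With all 3 control arrays, 1 of 7453 probe sets was called in limma at an adjusted p under 0.05, which is 0.0134%, and it was higher in mdx muscle. Without the array labelled control replicate 1, 3 were called (0.0403%), 1 higher (0.0134%) and 2 lower (0.0268%). At an unadjusted p under 0.05 the count was 419 with all arrays (5.62%), 289 of them higher in mdx muscle, and 155 without that array (2.08%), 93 of them higher. Of these probe sets 89 were shared, a share of 21.2% of the first list and 57.4% of the second. The estimated difference changed sign in 1719 of the 7453 when the array was left out, and those beyond 2-fold went from 140 to 81. Myh3 showed the extreme case, with a log2 fold change of 2.23 ± 0.94 (SE) with all arrays and 0.08 ± 0.18 without it.

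**Figure D2:**
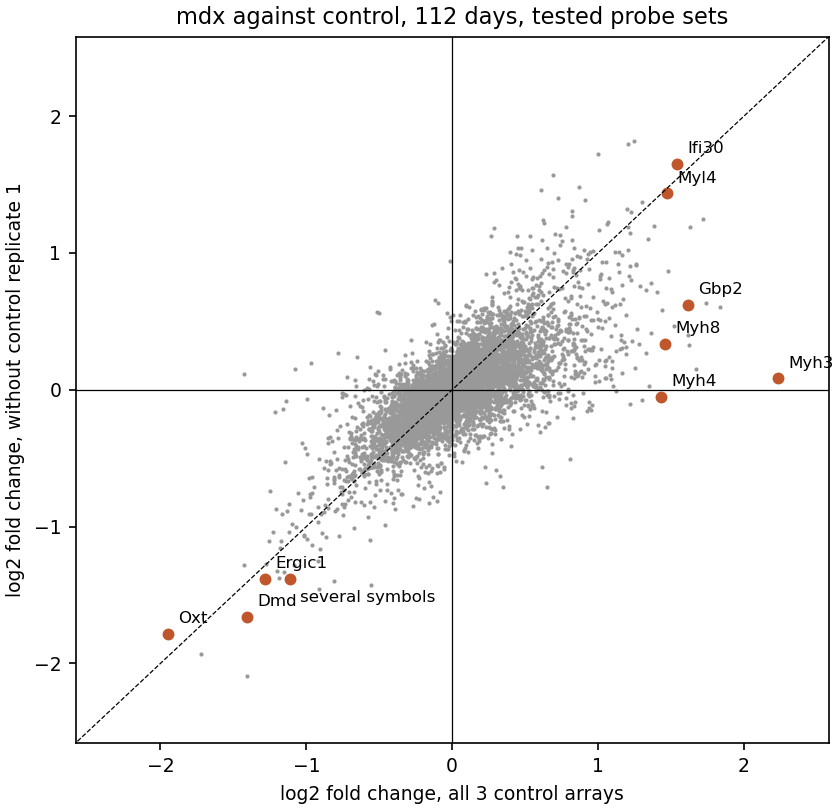
Log2 fold change of mdx against control at 112 days for each tested probe set (grey), with all 3 control arrays (horizontal axis) and without control replicate 1 (vertical axis); the dashed line marks equal values. Myl4, Dmd, Oxt, Ergic1, Ifi30 and the called probe set with several symbols (orange) lie near the line, while Myh3, Myh4, Myh8 and Gbp2 lie far to its right.

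Dystrophin RNA, from the gene mutated in mdx mice, was lower in mdx muscle on every array. Dmd had intensities of 234.0, 370.7 and 442.7 on the 3 control arrays and of 124.3, 122.6 and 106.2 on the 3 mdx arrays. Every mdx array was below every control array, and the lowest control value was that of the array labelled control replicate 1. The Dmd log2 fold change was -1.41 ± 0.28 (SE) with all arrays and did not pass (limma, adjusted p = 0.118). Without that array Dmd fell by 1.66 ± 0.30 on the log2 scale, 3.16-fold (limma, adjusted p = 0.0424). This Dmd call was lost on leaving out any second 112-day array (limma, adjusted p = 0.164 to 0.666), and with quantile normalization (0.0706), without the filter (0.0918), with the 112-day arrays alone (0.0934) or with the replicate number as a block (0.271). With all arrays and array weights, which count divergent arrays less, Dmd passed (limma, adjusted p = 0.000999). The array carries 1 tested probe set for Dmd, and the position of its probes relative to the stop codon is not given in the sources used here.

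Utrophin, a dystrophin homologue that can take its place at the membrane, was measured by a pair of dim probe sets. The first Utrn probe set had 59.998, 199.98 and 217.7 on the control arrays and 172.1, 175.8 and 205.1 on the mdx arrays, with ranges that overlapped. This gave a log2 fold change of 0.35 ± 0.50 with all arrays and -0.17 ± 0.50 without the array labelled control replicate 1. The second Utrn probe set gave -0.04 ± 0.54 and -0.37 ± 0.59. A difference in utrophin was not detectable with these errors.

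The list of the dystrophin complex and associated proteins, with Dmd included, differed little at its median. Of the 29 genes listed (dystroglycan, sarcoglycans, syntrophins, dystrobrevin, laminin and associated proteins), 17 were measured, and 11 were higher and 6 lower in mdx muscle in both comparisons. The median log2 fold change of the 17 was 0.17 with all arrays and 0.06 without the doubtful one, against 0.0066 and -0.0027 over all tested probe sets. Dmd was the 1 member called, without control replicate 1. Capn3, a muscle calpain that binds titin, had log2 fold changes of -0.45 ± 0.18 and -0.23 ± 0.17, Lama2, the laminin alpha chain of the muscle basal lamina, 0.32 ± 0.16 and 0.12 ± 0.14, and Sgce, epsilon-sarcoglycan, 0.52 ± 0.27 and 0.09 ± 0.23. The first value of each pair is with all arrays, the second without control replicate 1, and neither passed for any of these 3 genes.

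Myl4, the embryonic and atrial essential light chain of myosin that developing and regenerating fibres express, was higher in mdx muscle whichever controls were used. Its intensity was 413.7, 393.1 and 506.5 on the control arrays and 1437, 1074 and 1223 on the mdx arrays. The lowest mdx array had more than double the signal of the highest control array, and the array labelled control replicate 1 lay between the other 2 controls. Myl4 rose by 1.47 ± 0.23 on the log2 scale, 2.77-fold (limma, adjusted p = 0.0151), and by 1.44 ± 0.26 without that array (limma, adjusted p = 0.0424). The call with all arrays was lost on leaving out control replicate 2 (limma, adjusted p = 0.188), the first mdx array (0.248) or the third (0.116), and without the doubtful array it was lost on leaving out any further 112-day array, while the log2 fold change of Myl4 stayed between 1.26 and 1.61. With quantile normalization or only the 112-day arrays Myl4 did not pass either (limma, adjusted p = 0.0666 and 0.151 with all control arrays, 0.146 and 0.0934 without control replicate 1), nor without the filter when control replicate 1 was left out (0.0882). A second Myl4 probe set disagreed: it gave 1146, 897.3 and 877.8 on the control and 1072, 947.2 and 866.8 on the mdx arrays, a log2 fold change of -0.01 ± 0.27, and 0.11 ± 0.30 without control replicate 1. The platform annotation gives no ground to prefer one of them.

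The third probe set called without control replicate 1 is annotated to several gene symbols and so carries no gene name here. It had 1085, 1945 and 1889 on the control arrays and 720.7, 591.9 and 889.3 on the mdx arrays. All mdx values lay below all control values, and control replicate 1 was the nearest to them. The log2 fold change here was -1.11 ± 0.23 with all arrays (limma, adjusted p = 0.118) and -1.38 ± 0.22 without that array (limma, adjusted p = 0.0230). The call was lost on leaving out control replicate 2 or 3 or the mdx replicates 1 or 2 as well (limma, adjusted p = 0.134 to 0.666) and with only the 112-day arrays (0.0934), while with all arrays and array weights it passed (0.000398). At 14, 28 and 56 days the log2 fold changes were -1.18, -0.97 and -1.11, each ± 0.23, and none passed.

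Other genes had groups as clearly apart and did not pass. Over all tested probe sets the 3 mdx arrays lay above all 3 control arrays in 6.88% and below them in 6.86%. The examples with the smallest p among these were Oxt and Ergic1. Oxt, the precursor of the hormone oxytocin, had 1011, 845.7 and 590.7 on the control arrays and 184.0, 200.5 and 198.4 on the mdx arrays. The Oxt mdx arrays were close together, and control replicate 1 was the highest. The log2 fold change of Oxt was -1.95 ± 0.39 with all arrays (limma, adjusted p = 0.118) and -1.78 ± 0.43 without that array (limma, adjusted p = 0.626). With all arrays it passed under array weights (limma, adjusted p = 0.0019) and with the replicate number as a block (0.019).

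Ergic1, a membrane protein that cycles between the endoplasmic reticulum and the Golgi, had 304.8, 428.7 and 334.0 on the control arrays and 123.0, 142.0 and 142.6 on the mdx arrays. Here control replicate 1 was the lowest control and still more than 2-fold above the highest mdx array. The Ergic1 log2 fold change was -1.28 ± 0.26 and, without it, -1.38 ± 0.29 (limma, adjusted p = 0.118 and 0.253), and with array weights it passed (limma, adjusted p = 0.00139). Hsd3b7, a microsomal enzyme of bile acid synthesis, lay the other way, with 478.1, 596.3 and 536.3 on the control arrays and 1100, 1017 and 859.6 on the mdx arrays. Its log2 fold change was 0.87 ± 0.20, and 0.79 ± 0.21 without control replicate 1.

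The rest of the named genes with groups apart were weaker. Higher in mdx muscle were Tmem176b, a membrane protein of antigen-presenting cells, the myosin chaperone Unc45a, the Cdc42 effector Cdc42se1 and Abr, with log2 fold changes of 0.61, 1.02, 0.67 and 1.21 with all arrays and 0.50, 0.85, 0.38 and 1.02 without control replicate 1. Lower were the splicing factor Prpf19 at -0.50 and -0.56, the nuclear lamina protein Tmpo at -0.55 and -0.47, the thioredoxin reductase Txnrd1 at -0.48 and -0.45, and Qrsl1, of the mitochondrial amidotransferase, at -0.58 and -0.55. Krtap3-1, a hair keratin-associated protein, had -0.98 and -0.64. Clip1, a microtubule plus-end protein, and C2cd2 owed more of their difference to 1 array: Clip1 went from -0.83 to -0.38 and C2cd2 from -0.85 to -0.35 when control replicate 1, at 4424 and 2032, was left out. A further probe set of Prpf19 had -0.14 and -0.21. Those of Tmpo were below 0 with all arrays, at -0.04 and -0.06, and above 0 without control replicate 1, at 0.02 and 0.13. None of these 11 genes passed in either comparison.

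**Figure D3:**
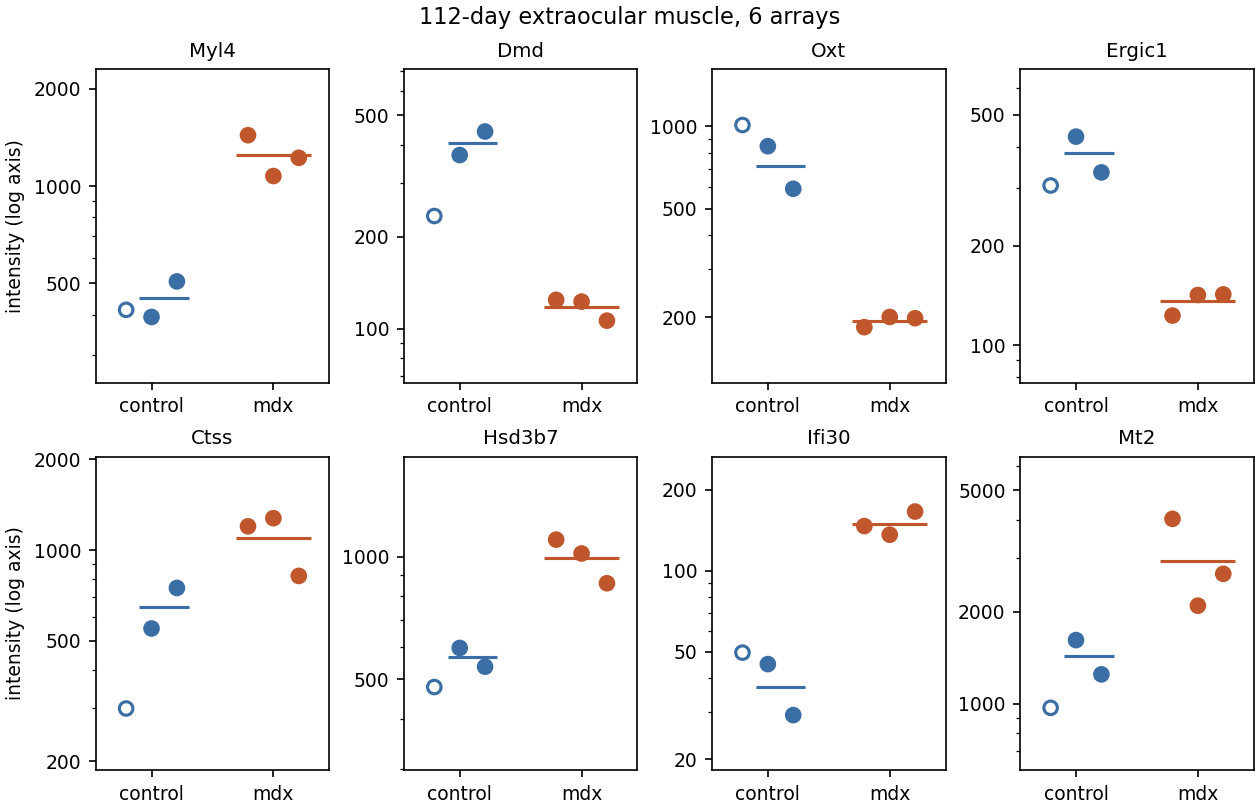
Intensity of 8 genes on the 6 arrays of 112 days (vertical log axes, 1 point per array). Blue points are control, orange points mdx, the open point is the array labelled control replicate 1, and lines are means without it. In all 8 genes the 3 mdx arrays lie on one side of the 3 control arrays, for Myl4 at 1074 to 1437 against 393.1 to 506.5.

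The genes were then grouped into 28 lists by function and cell type. Over all lists 1 measured gene was called with all arrays (Myl4) and 2 without control replicate 1 (Myl4 and Dmd), so the lists are described by counts and medians. RNA of whole muscle was measured, in which fewer cells of a type and less RNA per cell cannot be told apart. How far the array labelled control replicate 1 moved each list is given beside it, since it was the lowest of the 6 arrays for 31.3% of all tested probe sets.

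The list of antigen presentation and interferon-response genes had the highest median of the 28 in both comparisons. Of the 70 listed genes 39 were measured, 35 of them higher in mdx muscle with all arrays and 33 without control replicate 1, against 51.1% and 49.4% of all tested probe sets. Their median log2 fold change was 0.50 with all arrays and 0.30 without that array, which was the lowest of the 6 in 27 of the 39. The mdx arrays lay above all 3 controls in 14 of the 39 (35.9%, against 6.88% of all tested), and above the remaining 2 controls also in 14 (against 12%). The summed intensity of the 39 was 21348, 36098 and 34877 on the control arrays and 45172, 46214 and 39636 on the mdx arrays, so that the groups did not overlap.

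The leading gene of that list was Ifi30, the lysosomal thiol reductase that unfolds antigens for loading. Ifi30 had 49.7, 45.1 and 29.2 on the control arrays and 146.4, 136.0 and 165.7 on the mdx arrays. Its signal was dim on every control array, so that the fold change is understated, and its log2 fold change was 1.54 ± 0.37 with all arrays and 1.65 ± 0.41 without control replicate 1. Tapbp, tapasin, which loads peptides on class I molecules, had 0.59 ± 0.19 and 0.40 ± 0.18, and Ifitm3, an interferon-induced membrane protein, 0.85 ± 0.29 and 0.48 ± 0.27. Gbp2, an interferon-induced guanylate-binding protein, had 42.4, 440.3 and 448.0 on the control arrays and 755.5, 913.7 and 478.5 on the mdx arrays, where mdx replicate 3 was close to the upper controls. The log2 fold change of Gbp2 was 1.61 ± 0.55, and 0.62 ± 0.39 without control replicate 1. Of the 4, none was called in either comparison, and Ifi30 passed with array weights (limma, adjusted p = 0.00139).

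The bases upstream of the list genes were read for the core of the interferon-stimulated response element. The core is GAAA, any 2 bases and GAAA again, and both strands were read. Promoters were those of RefSeq on the GRCm38.p6 assembly, the 250 bases before each gene's start. Matches stood in 8 of the 31 measured list genes with a promoter (25.8%) and in 3.06% of the 4568 tested genes with a promoter. Counted by promoter and not by gene, they stood in 2.98% of all 32851. The list was put together as interferon and antigen presentation genes, so that its high share follows from that choice. The share says nothing about the mdx difference. A match describes the letters only. Each gene was counted once if any of its promoters held a match, and each promoter once however many matches it held. The 3 list genes below are shown as those with the largest differences without control replicate 1 among the 8, and Ctss as a macrophage gene with the same letters. The share of matches among macrophage genes was not counted, so that Ctss is a single example. Capitals mark the matches, TTTC read on the given strand being the reverse complement.

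Igtp: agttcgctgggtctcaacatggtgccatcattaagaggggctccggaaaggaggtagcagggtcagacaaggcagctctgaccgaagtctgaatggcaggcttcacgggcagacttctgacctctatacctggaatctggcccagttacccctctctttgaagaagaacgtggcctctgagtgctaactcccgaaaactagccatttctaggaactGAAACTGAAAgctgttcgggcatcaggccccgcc
Gbp2: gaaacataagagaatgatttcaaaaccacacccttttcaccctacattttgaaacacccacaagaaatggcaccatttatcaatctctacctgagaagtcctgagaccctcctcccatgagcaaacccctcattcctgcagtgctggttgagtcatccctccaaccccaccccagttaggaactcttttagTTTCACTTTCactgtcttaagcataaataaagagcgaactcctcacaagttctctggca
Gbp3: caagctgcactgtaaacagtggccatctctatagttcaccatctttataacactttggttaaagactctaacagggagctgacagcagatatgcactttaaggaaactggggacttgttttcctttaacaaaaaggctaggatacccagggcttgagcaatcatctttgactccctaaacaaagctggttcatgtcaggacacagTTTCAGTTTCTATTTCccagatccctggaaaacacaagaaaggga
Ctss: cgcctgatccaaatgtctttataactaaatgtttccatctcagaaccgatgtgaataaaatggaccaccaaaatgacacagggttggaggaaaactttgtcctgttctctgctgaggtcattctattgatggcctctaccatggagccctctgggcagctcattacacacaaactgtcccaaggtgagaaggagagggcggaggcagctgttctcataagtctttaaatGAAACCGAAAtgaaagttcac

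These are the stretches chr11:58199306-58199555, plus strand (Igtp), chr3:142620413-142620662, plus strand (Gbp2), chr3:142559794-142560043, plus strand (Gbp3) and chr3:95526536-95526785, plus strand (Ctss). All 8 list genes with a match were higher in mdx muscle in both comparisons, at log2 fold changes of 0.36 to 1.61 with all arrays and 0.14 to 0.97 without control replicate 1. The 8 had medians of 0.70 and 0.39, beside 0.44 and 0.25 for the 23 list genes whose promoter held no match and 0.67 and 0.36 for the 8 that were not read because the table gives no promoter for them. Igtp, an immunity-related GTPase, had a log2 fold change of 0.85 with all arrays and 0.97 without that array, and Gbp3 had 0.90 and 0.54. Gbp2 and Gbp3 are close paralogues whose probes may share signal.

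Macrophage genes showed the same side with smaller differences. Of 56 listed genes 30 were measured, and 26 were higher in mdx muscle in both comparisons, with a median log2 fold change of 0.28 with all arrays and 0.16 without control replicate 1. The mdx arrays lay above all 3 controls in 8 of the 30 (26.7%, against 6.88% of all tested) and above the remaining 2 also in 8, where the share of all tested was 12%. Control replicate 1 was the lowest of the 6 in 20. The summed intensity of the 30 was 9936, 15049 and 17224 on the control arrays and 17886, 20544 and 16787 on the mdx arrays, so that the groups overlapped. Ctss, cathepsin S, the protease that trims the class II invariant chain, had 298.9, 550.0 and 748.8 on the control arrays and 1198, 1274 and 820.8 on the mdx arrays. Its log2 fold change was 1.09 ± 0.24 (limma, adjusted p = 0.208) and fell short of the threshold also without control replicate 1, at 0.73 ± 0.21. Without control replicate 3 it passed (limma, adjusted p = 0.0345).

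Ctsz, another lysosomal cathepsin, had 0.63 ± 0.19 with all arrays and 0.43 ± 0.19 without control replicate 1. C1qa, a chain of the complement component that resident macrophages make, had 0.89 ± 0.30 and 0.47 ± 0.27, and the monocyte chemokine Ccl8 1.40 ± 0.48 and 0.72 ± 0.43. The general macrophage markers were less clear: Cd68 had 0.17 and 0.26, Csf1r, the receptor for the macrophage growth factor, 0.49 and 0.20, and Adgre1, the F4/80 antigen, and Itgam stayed under the filter, at no more than 143.9 and 31.2 on any 112-day array. Among 11 measured lymphocyte genes 3 were higher with all arrays and 7 without control replicate 1, and the T cell receptor genes Cd3d, Cd3e and Cd3g stayed under the filter at no more than 69.9.

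Genes of myogenic regeneration were another group on the higher side. Of 40 listed 30 were measured, 23 of them higher in mdx muscle in both comparisons, with medians of 0.35 and 0.18. Myl4 was called, on its brighter probe set over the series. The second Myl4 probe set, which does not count in the list, gave -0.01 ± 0.27 and 0.11 ± 0.30. On the 112-day control arrays that second probe set had the higher mean (973.6 against 437.8). The mdx arrays lay above all 3 controls in 8 of the 30 (26.7%, against 6.88%) and above the remaining 2 controls in 11 (36.7%, against 12% of all tested), and below them in 0. Tnnt2, the cardiac and embryonic troponin T, had 98.8, 311.2 and 301.3 on the control arrays and 524.5, 451.5 and 461.0 on the mdx arrays. For Tnnt2 the log2 fold change was 1.11 ± 0.28, and 0.62 ± 0.20 without control replicate 1. Cdkn1a, p21, which stops the cycle of differentiating myoblasts, had 134.3, 565.4 and 546.4 on the control arrays and 830.6, 895.4 and 738.7 on the mdx arrays. For Cdkn1a it was 1.19 ± 0.32 and 0.55 ± 0.18, and a second Cdkn1a probe set gave 0.22 and 0.30.

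The myosin heavy chains showed how much rested on 1 array. With all arrays the log2 fold changes were 2.23 for Myh3, 1.46 for Myh8 and 1.43 for Myh4. Without control replicate 1 they were 0.08 ± 0.18, 0.34 ± 0.15 and -0.05 ± 0.41. For Myh8 the remaining groups did not overlap, with 1521 and 1497 on the remaining controls and 2032, 1761 and 1942 on the mdx arrays. Myh1, the fast IIX chain, had -0.16 and -0.07, and Myh7, the slow chain, 0.29 and 0.28 on its brighter probe set. None passed, and Myh2 stayed under the filter. Myh13, the chain typical of extraocular muscle, was not analysed here.

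Immediate early genes, which are induced within minutes by stress, stretch or calcium, kept their median. Of 38 listed 30 were measured; 21 were higher with all arrays and 24 without control replicate 1, and the median was 0.22 in both comparisons. The mdx arrays lay above all 3 controls in 7 of the 30 (23.3%, against 6.88% of all tested) and above the remaining 2 in 8 (26.7%, against 12%). Klf4, a zinc finger factor, had 411.5, 1066 and 1330 on the control arrays and 1770, 1601 and 1749 on the mdx arrays. The difference was 1.01 ± 0.33 on the log2 scale and 0.51 ± 0.28. Egr2 had 0.62 ± 0.19 and 0.36 ± 0.17, Ier2 0.47 ± 0.18 and 0.29 ± 0.18, and Klf10 lay on the other side at -0.41 ± 0.16 and -0.51 ± 0.17.

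Among antioxidant and heat shock genes 20 of the 35 measured were higher in both comparisons, close to the share of all probe sets, and the median was 0.05 and 0.07. All mdx arrays lay above the controls in 4 and 5 of the 35 (11.4% and 14.3%) and below them in 2 and 6 (5.71% and 17.1%). Over all tested probe sets 6.88% and 12% lay above, and 6.86% and 12.5% below. Txnrd1, given above, was among those below. Mt2, a metallothionein that binds zinc, had 969.9, 1616 and 1248 on the control arrays and 4030, 2094 and 2663 on the mdx arrays. The groups did not overlap and mdx replicate 1 was the highest. The Mt2 log2 fold change was 1.16 ± 0.35 and 0.98 ± 0.39. Gpx3, the secreted glutathione peroxidase, had 3021, 3685 and 3744 against 6184, 6045 and 5569, a log2 fold change of 0.77 ± 0.26 and 0.67 ± 0.29. Neither gene passed.

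The medians of several other lists depended on the array labelled control replicate 1. Extracellular matrix genes had 35 of 46 higher and a median of 0.21 with it, and 19 of 46 and -0.02 without it. It was the lowest of the 6 arrays in 35 of the 46. Endothelial and vessel wall genes went from 23 of 28 higher, median 0.21, to 10 of 28, median -0.05. Neuromuscular junction genes went from 12 of 14, median 0.31, to 7 of 14, median -0.01, and complement genes from a median of 0.20 to 0.04. Of the 46 matrix genes, whose products build up in fibrotic limb muscle, 3 had all mdx arrays above the remaining 2 controls and 7 had all below them, against 12% and 12.5% of all tested.

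The medians of energy metabolism differed little. Oxidative phosphorylation genes had medians of -0.06 and -0.02 over 51 measured, with 17 and 24 higher, and genes of the citric acid cycle and of fat breakdown -0.05 and -0.08 over 33, with 13 and 8 higher. All mdx arrays lay below the controls in 3 and 6 of the 51 (5.88% and 11.8%) and above them in 0. Of the 33, 3 and 7 lay below (9.09% and 21.2%) and 1 above in both comparisons. Over all tested probe sets 6.86% and 12.5% lay below, and 6.88% and 12% above. The oxidative phosphorylation gene Ndufb7 had -0.76 ± 0.28 and -0.71 ± 0.32, with groups apart, and did not pass. Fast muscle isoforms had medians of -0.05 and -0.08 and slow and cardiac isoforms -0.03 and 0.0036, and their summed intensities differed between control arrays more than between genotypes. The fast list summed to 119771, 172333 and 88291 on the control arrays and to 133776, 113597 and 98368 on the mdx arrays.

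**Figure D4:**
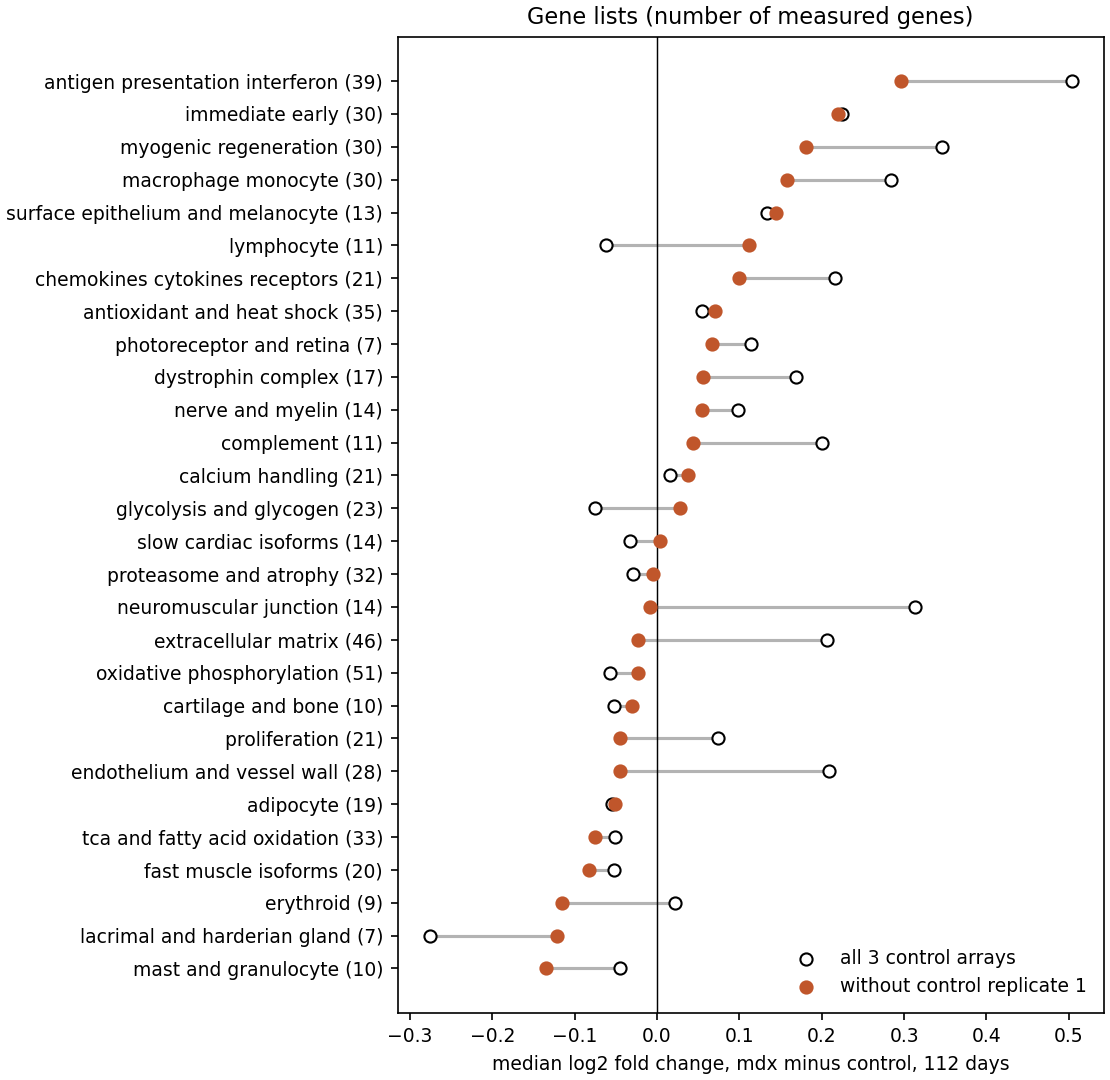
Median log2 fold change of mdx against control at 112 days for 28 gene lists, with the number of measured genes in brackets. Open points use all 3 control arrays and filled points leave out control replicate 1; antigen presentation and interferon genes are highest in both (0.50 and 0.30), and neuromuscular junction, matrix and endothelial genes move from above 0.2 to about 0.

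Whether the difference at 112 days departed from that at younger ages was tested by setting it against the mean difference at 14, 28 and 56 days. No probe set was called in limma with all arrays (0 of 7453, 254 at an unadjusted p under 0.05, 3.41%) or without control replicate 1 (0 of 7453, 144 at an unadjusted p under 0.05, 1.93%). Ergic1 had the smallest adjusted p. Its log2 fold changes at 14, 28 and 56 days were 0.37, 0.60 and -0.36, each ± 0.26, against -1.28 at 112 days, a difference of -1.48 ± 0.30 (limma, adjusted p = 0.561), and -1.58 ± 0.33 without control replicate 1 (limma, adjusted p = 0.811). Hsd3b7 had -0.23, -0.08 and -0.19, each ± 0.20, before 0.87, a difference of 1.03 ± 0.23 (limma, adjusted p = 0.575), and 0.95 ± 0.24 without that array. Oxt had -0.54, -0.64 and 0.28, each ± 0.39, before -1.95, a difference of -1.65 ± 0.44, and -1.48 ± 0.49 without it.

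Myl4 and Dmd differed on the same side earlier. Myl4 had log2 fold changes of 0.38, 0.85 and 1.72, each ± 0.23, at 14, 28 and 56 days, and passed at 56 days (limma, adjusted p = 0.00144). Dmd had -1.13, -0.84 and -1.92, each ± 0.28, and also passed at 56 days (limma, adjusted p = 0.00323). The 56-day controls include the divergent array, which had the lowest Myl4 of that group at 343.6, beside 579.1 and 442.0, against 1061 to 2208 on the mdx arrays. Without it the 56-day values were 1.54 ± 0.25 for Myl4 and -1.87 ± 0.29 for Dmd, and both passed (limma, adjusted p = 0.0123 for each). The second Myl4 probe set had -0.51, 0.13 and 0.30, each ± 0.27, at the 3 earlier ages, and 0.55 ± 0.28 at 56 days without that array. The 112-day difference departed from the mean of the earlier ages by 0.49 ± 0.26 for Myl4 and by -0.11 ± 0.33 for Dmd, and without control replicate 1 by 0.46 ± 0.29 and -0.36 ± 0.33, none of which passed. The medians of the antigen presentation and interferon genes were 0.03, 0.14 and 0.52 at the 3 earlier ages, and those of the macrophage genes -0.04, 0.21 and 0.39. Without the divergent array the 56-day medians were 0.55 and 0.51.

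**Figure D5:**
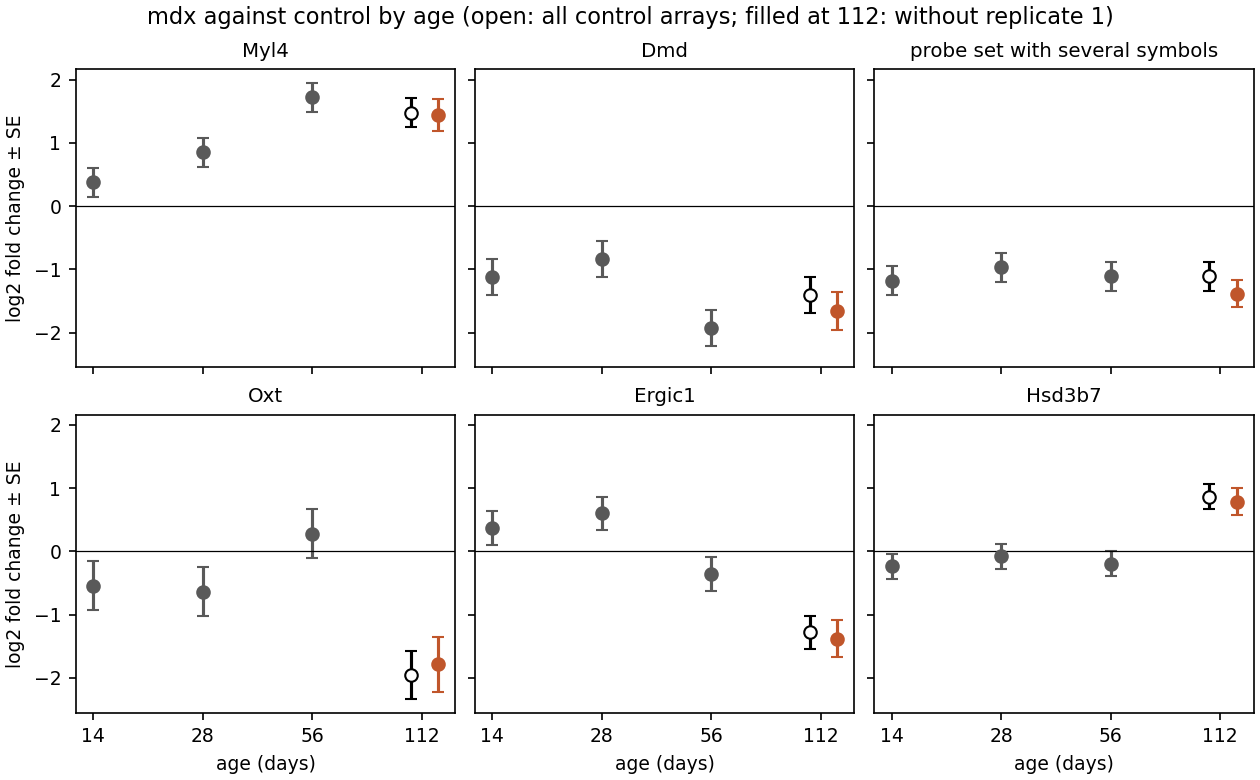
Log2 fold change of mdx against control with its SE at each age for 6 probe sets. Grey points are 14, 28 and 56 days, the open point 112 days with all control arrays and the orange point 112 days without control replicate 1; Oxt, Ergic1 and Hsd3b7 have their values farthest from 0 at 112 days, at -1.95, -1.28 and 0.87.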

How the data were processed

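The authors deposited linear intensities, a value for each probe set on each array, and per the labels followed a standard Affymetrix procedure. Which software made the values is not given in the sources used here. Per the deposited values, every array had a mean of 1500.5 to 1500.9 without the lowest and highest 2%. Values under 1 (44 of them) were set to 1, each array was scaled to such a mean of 500, 16 was added and log2 taken. Fold changes are on this scale and understate changes of dim probe sets. Probe sets at or above the 40th percentile of the mean were tested. Of 12422 probe sets 10833 had 1 symbol, 396 several and 1193 none. 10817 of the symbols matched RefSeq.

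A limma 3.58.1 model (R 4.3.3) with 8 group means, 24 arrays and a variance trend gave two-sided tests adjusted by Benjamini-Hochberg. Without control replicate 1, 23 arrays were fitted and the same probe sets tested. Errors after ± are SE. The script was tested on simulated data. Dmd, Utrn, the called genes, the 10 smallest p in each direction among genes whose groups did not overlap, up to 4 genes per list by smallest p and the myosin heavy chains were named; Igtp, Gbp3, Cd68, Csf1r, Adgre1, Itgam, the Cd3 genes, Car3 and the Hox genes were added as markers or after their values were seen. The brightest probe set stood for a gene in a list. The members and lists were chosen with earlier results of these data known. Alternatives were quantile normalization, offsets of 64 and 1, no filter or the 60th percentile, only the 112-day arrays, a replicate block, array weights and leaving out arrays.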

Additional observations from a re-analysis of the deposited data

How the results depend on the processing

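With all 3 control arrays, 1 probe set was called, as it was with either offset, without the filter and with the stricter one. The count was 0 with quantile normalization, 0 with only the 112-day arrays, 7 with array weights (Myl4, Dmd, Oxt, Ergic1, Ifi30, the probe set with several symbols and a further one without a gene name), 3 without the 2 arrays that stand apart, and 0 to 3 on leaving out 1 array: 0 without control replicate 2 or without either mdx replicate 1 or 3, and 2 without control replicate 3. Without control replicate 1, 3 were called, but 1 with quantile normalization, 1 without the filter, 0 with only the remaining 112-day arrays and 0 to 1 on leaving out a further one. These combinations were chosen after seeing the data. Where the limma count was 0, 96 to 654 probe sets had an unadjusted p under 0.05. The comparison of ages gave 0 calls in limma throughout except 1, Ergic1, with array weights.

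Of single genes, the following log2 fold changes changed sign, none of them called. With array weights and without the 2 arrays that stand apart, the first Utrn probe set had -0.030 and -0.17 (-0.17 to 0.64 on leaving out 1 array), the second Myl4 probe set 0.064 and 0.11 (-0.091 to 0.11), and the further Tmpo probe sets 0.021 and 0.022 (-0.082 to 0.033) and 0.11 and 0.13 (-0.19 to 0.13). Without the 2 arrays Myh4 had -0.051 (-0.051 to 2.41). On leaving out 1 array the second Utrn probe set ranged from -0.37 to 0.17, and second probe sets of Prpf19 from -0.32 to 0.046, of Myh7 from -0.054 to 0.51 and of Klf10 from -0.15 to 0.12.

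Same-numbered control and mdx arrays of 112 days deviated together at r = 0.067, 0.090 and 0.107, and each array correlated best with its own number, a hint from the data and not from the design. At 28 days all 3 pairs were above 0.1, at 0.322, 0.199 and 0.127, and over the 4 ages 6 of 12 were, from -0.023 to 0.322. As not every pair passed 0.1, the numbers were not taken to pair the samples. With a replicate block within age 2 probe sets were called, Myl4 and Oxt (limma, adjusted p = 0.019 for Oxt), and 2 without control replicate 1, Myl4 and the probe set with several symbols, while Dmd did not pass there (limma, adjusted p = 0.271). The number of arrays and the dim signal of many probe sets limit the precision.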

Other observations

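Genes of neighbouring tissues were looked at as well. Among 13 measured genes of surface epithelium and melanocytes 8 were higher in mdx muscle in both comparisons. Dsp, desmoplakin of epithelial junctions, had 69.3, 345.3 and 109.4 on the control arrays and 391.1, 419.3 and 630.1 on the mdx arrays, with a log2 fold change of 1.63 ± 0.60, and 1.19 ± 0.65 without control replicate 1. Krt6a, a keratin of stressed epithelium, had 415.7, 962.9 and 456.6 against 1114, 1122 and 1632, a log2 fold change of 1.14 ± 0.47, and 0.92 ± 0.53 without that array. The mdx arrays of both genes lay above all control arrays, and neither passed. Of the 13 genes, 2 had all mdx arrays above the controls and 2 below (15.4% each), and 3 and 3 without control replicate 1 (23.1% each). Over all tested probe sets 6.88% lay above and 6.86% below, and without that array 12% and 12.5%. Pmel, a melanosome protein, lay on the other side, with 389.4, 315.2 and 249.3 against 187.8, 169.2 and 189.5, at -0.73 ± 0.36 and -0.58 ± 0.40. So did Lor of the same list, with 412.4, 280.5 and 313.2 against 246.7, 235.6 and 186.0, at -0.55 ± 0.45 and -0.40 ± 0.51. Of 23 photoreceptor and retina genes on the array 7 passed the filter, 5 of them higher in both comparisons, with medians of 0.11 and 0.07. Among them Pde6a, a phosphodiesterase subunit, had -0.30 and -0.17 and Abca4, a retinal transporter, 1.00 and 0.07. Guca1a, a guanylate cyclase activator of photoreceptors, had 160.4, 47.0 and 30.3 against 166.8, 122.6 and 255.1, with a log2 fold change of 1.25 ± 0.47, and 1.82 ± 0.46 without control replicate 1. Of 7 measured lacrimal and Harderian gland genes 2 were higher in both comparisons, with medians of -0.28 and -0.12, and control replicate 1 was the highest of the 6 arrays in 4 and the lowest in 2. The lacrimal gland gene Bpifa2 had 154.9, 2548 and 2766 on the control arrays and 2222, 2554 and 2671 on the mdx arrays, so that it was one of the 2 for which control replicate 1 was the lowest. Its log2 fold change was 1.22 ± 0.66 with that array and -0.10 ± 0.39 without it.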
